A study of Mus musculus with 16 samples.

Results

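The genes described here carry the insulin and insulin-like growth factor signal from the cell surface to the AKT and GSK3 kinases and the FOXO1 transcription factor. They were chosen by name, as Insr, Igf1r, Irs1, Irs2, Akt1, Akt2, Gsk3a, Gsk3b and Foxo1, which are 9 of the 40481 genes listed in the count table, and all 9 were among the 14949 genes that passed the filter on low values and were tested. The samples were brains of 16 aged mice, bought at 18 months of age, of a strain given as C57BL in the labels and as C57BL/6J in the study's text. One group of 8 had received adropin34-76, the predicted secreted part of the peptide encoded by Enho, by intraperitoneal injection at 90 nmol/kg/day, and the other group of 8 had received the saline diluent (0.9% saline with 0.1% BSA). The injections ran for 2 weeks before behavioural testing and were continued afterwards, and the mice were fasted for 6 h before collection. Both groups were of the same strain, and the labels name no allele and no difference but the peptide. The mice sequenced were a subset of groups of 15, and each was an RNA sample from 1 animal.

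Insulin and IGF-1 bind receptor tyrosine kinases that phosphorylate the insulin receptor substrates, which recruit PI3-kinase and so activate AKT. AKT phosphorylates and inhibits both forms of GSK3, a kinase that acts on glycogen synthase, β-catenin and tau, and it keeps FOXO factors out of the nucleus, where they would otherwise activate genes of stress resistance, growth arrest and fasting metabolism. In the brain the pathway is known for its part in neuronal survival, synaptic function and energy use. Nearly all of this control acts on protein phosphorylation, which is not part of these data, and all values given here are transcript levels.

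Expression was measured by poly-A RNA sequencing, and levels are given as TMM-normalized CPM, which are counts scaled to a common library size corrected by the trimmed mean of M-values. Total counts ranged from 35026503 to 70314050 per mouse, and the lowest count of any of the 9 genes in any mouse was 125, for Irs1, so counting error was small beside the spread between mice. All markers of neurons (10 of 10), astrocytes (8 of 8), oligodendrocytes (8 of 8) and microglia (8 of 8) passed the filter, as a brain label implies, but the region sampled is not given. Marker scores of the choroid plexus and the cerebellum stood at 2.86 and 2.89 in saline mouse 8_3, whereas the highest values among adropin-treated mice were 0.392 and 0.201. In bulk tissue, fewer cells of a type and less RNA per cell cannot be told apart.

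The genes lie on 6 chromosomes of GRCm38. Insr is on chromosome 8 from 3122061 to 3279617, Igf1r on chromosome 7 from 67952827 to 68233668, Irs1 on chromosome 1 from 82233101 to 82291416 and Irs2 on chromosome 8 from 10984681 to 11008458. Akt1 lies on chromosome 12 from 112653821 to 112674884, Akt2 on chromosome 7 from 27591552 to 27640826, Gsk3a on chromosome 7 from 25228258 to 25237851, Gsk3b on chromosome 16 from 38089001 to 38246084 and Foxo1 on chromosome 3 from 52268336 to 52353221. Exons of a gene on the opposite strand overlap exons of Irs1 (Gm9747), Irs2 (9530052E02Rik), Gsk3a (9130221H12Rik) and Foxo1 (Gm20402). The sources used here do not say whether counting used the strand, so reads of these 4 genes and of their opposite partners may not have been told apart.

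Promoter windows of 8 of the 9 genes were found in RefSeq (GRCm38.p6), running from 250 bases before to 50 bases after a transcript start. The stretches given here are from Irs1 and Irs2, whose levels moved together most closely between mice, and from Akt1, the one gene of the 8 searched with the core letters of a FOXO site. Capitals mark the E-box CACGTG in the first pair and TGTTTAC in the last, and each is read 5′ to 3′ on the strand of its gene.
Irs1, chr1:82291538-82291565, minus strand: agaggctccgtCACGTGttttgctcctc
Irs2, chr8:11008957-11008984, minus strand: taacgcagagtCACGTGttgttttgctc
Akt1, chr12:112675028-112675056, minus strand: atctaccctctTGTTTACactcctggtga
The E-box started at -115 from the start of Irs1 and at -44 from that of Irs2, and it was found in 2 of the 12 windows of these genes (some have several transcript starts) and in 7.15% of 32851 promoter windows. TGTTTAC, searched on both strands, was found in 1 of 12 windows and in 3.65% of all windows. The GC box GGGCGG was found in 7 of 12 windows, with none in Gsk3b, and in 35.7% of all windows. The cyclic AMP response element TGACGTCA was in 0 of 12 windows and in 1.79% of all windows. These matches describe letters in the windows and say nothing of binding.

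The study asked how peptide treatment altered the aged brain transcriptome, and for these genes the comparison of adropin with saline showed small differences. Igf1r was the only one of the 9 past an unadjusted p of 0.05 in edgeR's quasi-likelihood test, and it was higher with adropin. Its share of the 9 genes, 11.1%, stands beside 3.99% of all genes tested (1.86% increased and 2.13% reduced). None of the 9 passed a fold change of 1.5 together with that p, against 0.421% of all genes (63). The study, which used limma, reported more genes at the same cut-off. No gene in the transcriptome passed a Benjamini-Hochberg adjusted p of 0.05 in edgeR (596 had an unadjusted p under 0.05), and the smallest adjusted p was 0.387. The log2 fold change was above 0 for 8 of the 9 genes, and its median was 0.08 against -0.0019 over all genes. These directions depended on the model. With 1 surrogate variable (an axis of variation estimated from all genes) as a covariate, Insr, Irs1, Irs2, Akt1 and Gsk3a turned below 0. Foxo1 then turned above 0, and the first principal component of all genes as a covariate gave the same signs. Because the levels of these genes were correlated between mice, as described further on, the 8 directions are not separate observations.

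**Figure D1:**
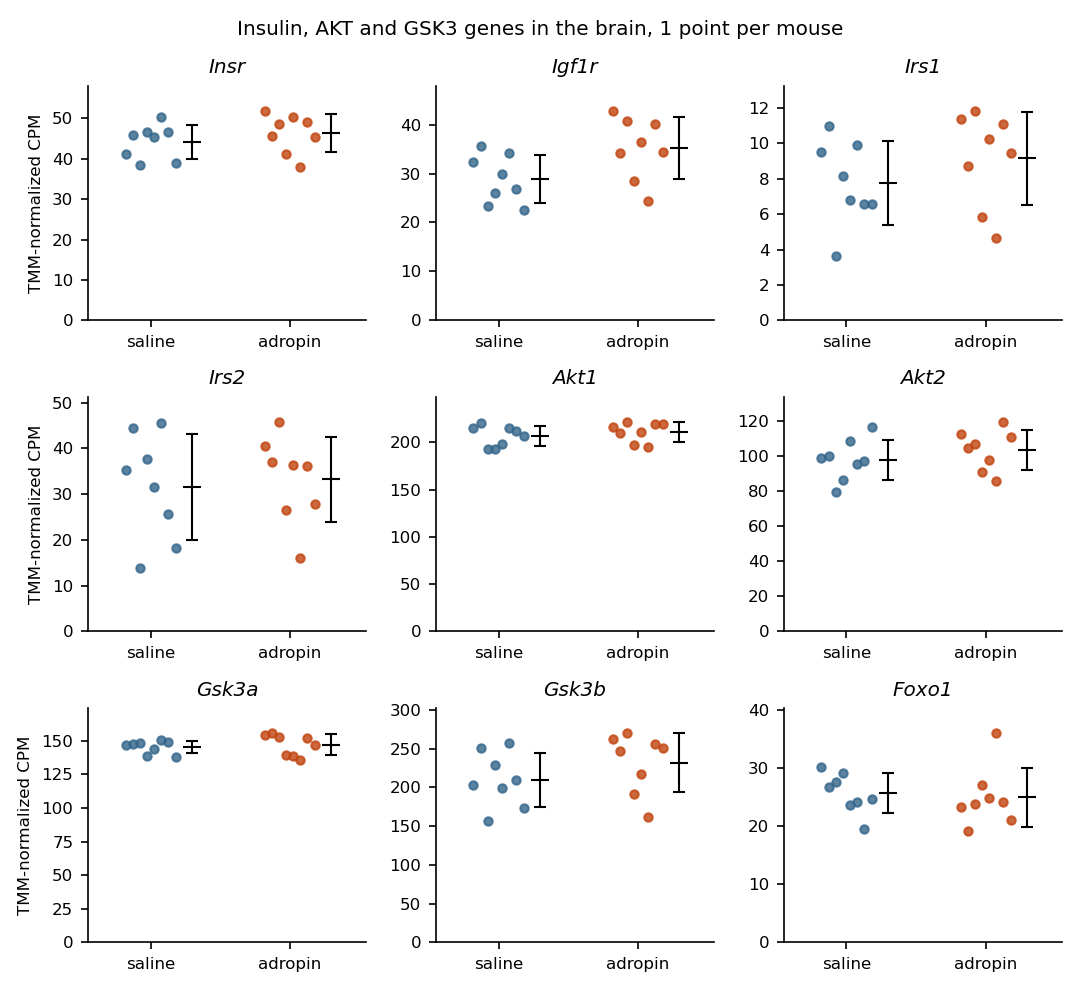
Level of each gene in each mouse (vertical axes, TMM-normalized CPM, starting at 0), for 8 saline and 8 adropin mice, with the mean and SD beside the points. The groups overlap for every gene, and the shift is widest, relative to its spread, for Igf1r (35.2 against 28.9).

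Of the receptors, Igf1r encodes the receptor for IGF-1 and Insr that for insulin. In the adropin mice the Igf1r level was 42.7, 34.2, 40.7, 28.4, 36.5, 24.3, 40.2 and 34.4 CPM in mice 1_3, 2_1, 2_4, 3_3, 4_1, 4_3, 5_5 and 7_4. In the saline mice it was 32.4, 35.6, 23.4, 25.9, 29.9, 34.3, 26.9 and 22.5 CPM in mice 2_3, 5_3, 5_4, 6_1, 6_2, 7_1, 8_1 and 8_3. In 4 adropin mice (1_3, 2_4, 4_1 and 5_5) the level was above that of every saline mouse, whereas adropin mice 4_3 and 3_3 lay among the lower saline values, and 6 of 8 adropin mice exceeded the saline median.

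Mean Igf1r was 35.2 ± 6.33 CPM with adropin and 28.9 ± 4.93 CPM with saline (SD, 8 mice in each group). The log2 fold change was 0.29 (SE 0.12, 95% interval 0.04 to 0.54), or 1.22-fold, with an edgeR adjusted p of 0.874. The unadjusted edgeR p was 0.0271, and an exact permutation test of the same values, two-sided, gave p = 0.0524. The edgeR p rested on single mice: it was 0.0569 without adropin mouse 1_3, 0.0509 without adropin mouse 2_4, 0.0538 without saline mouse 5_4 and 0.0565 without saline mouse 8_3. It was 0.178 when the first number of the mouse label was a replicate block 0.0888 with the second number as the block, and 0.0912 with the level of the rRNA-like transcript Gm42418 as a covariate. With 1 surrogate variable (an axis of variation estimated from all genes) or the first principal component of all genes as a covariate, its log2 fold change was 0.15 and 0.14.

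Insr levels ranged from 38.0 to 51.8 CPM (median 47.1) with adropin and from 38.5 to 50.2 CPM (median 45.7) with saline. The groups overlapped almost completely, with a log2 fold change of 0.07 (SE 0.07, 95% interval -0.08 to 0.22; edgeR adjusted p = 0.877).

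Because the receptors share a family and formed a pair in each mouse, their ratio was also compared. The log2 ratio of Insr to Igf1r CPM was 0.41 ± 0.14 with adropin and 0.62 ± 0.19 with saline (SD), a difference of -0.21. An exact permutation test, two-sided, gave p = 0.0256, which became 0.154 after adjustment over the 6 ratios tested. The ratio ran from 0.25 to 0.64 in adropin mice and from 0.34 to 0.84 in saline mice, so the groups overlapped. Igf2r, which clears IGF-2 and carries no kinase, was at 36.9 ± 3.58 CPM with adropin and 35.9 ± 3.30 CPM with saline. Insrr, an orphan receptor of the family, did not reach the filter, with no mouse above 0.956 CPM.

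Irs1 and Irs2 encode the main adaptors that link the receptors to PI3-kinase. They were the most variable of the 9 genes: the SD of their log2 levels within groups exceeded that of 95.5% and 96.9% of all genes tested. Irs1 levels were 11.4, 8.73, 11.8, 5.84, 10.2, 4.63, 11.1 and 9.43 CPM in adropin mice 1_3, 2_1, 2_4, 3_3, 4_1, 4_3, 5_5 and 7_4. Its levels were 9.52, 10.9, 3.62, 8.17, 6.79, 9.88, 6.55 and 6.57 CPM in saline mice 2_3, 5_3, 5_4, 6_1, 6_2, 7_1, 8_1 and 8_3. The lowest levels were in adropin mouse 4_3 and saline mouse 5_4, and the groups overlapped. The log2 fold change was 0.24 (SE 0.21, 95% interval -0.20 to 0.68; edgeR adjusted p = 0.874).

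For Irs2, adropin mice 1_3, 2_1, 2_4, 3_3, 4_1, 4_3, 5_5 and 7_4 were at 40.5, 37.1, 45.7, 26.6, 36.3, 16.03, 36.1 and 27.9 CPM. Saline mice 2_3, 5_3, 5_4, 6_1, 6_2, 7_1, 8_1 and 8_3 were at 35.4, 44.6, 13.9, 37.8, 31.5, 45.5, 25.6 and 18.2 CPM. Mice 4_3 and 5_4 were again the lowest of their groups, and the groups shared much of the same range. Its log2 fold change was 0.08 (SE 0.23, 95% interval -0.41 to 0.56; edgeR adjusted p = 0.948). It turned to -0.19 with 1 surrogate variable or with the first principal component of all genes as a covariate, past an unadjusted p of 0.05 in both. A fold change of 1.5 lay inside the interval of Irs1 and just outside that of Irs2. Irs4, a further adaptor, did not reach the filter.

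Akt1 and Akt2 encode serine/threonine kinases, of which AKT2 is best known for glucose handling and AKT1 for growth and survival. Akt1 ranged from 194.8 to 221.3 CPM (median 213.6) with adropin and from 192.9 to 220.0 CPM (median 209.2) with saline. The groups were almost the same in range, and the coefficient of variation over all 16 mice was 4.98%. Its log2 fold change was 0.03 (SE 0.05; edgeR adjusted p = 0.893), and the 95% interval of the fold change ran from 0.955 to 1.09. Akt2 ranged from 85.6 to 119.2 CPM (median 105.4) with adropin and from 79.2 to 116.2 CPM (median 98.0) with saline, again with overlap. Its log2 fold change was 0.08 (SE 0.08, 95% interval -0.09 to 0.25; edgeR adjusted p = 0.876).

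Gsk3a and Gsk3b encode the forms of glycogen synthase kinase 3. Gsk3a was the steadiest gene of the 9, with a range of 136.1 to 155.8 CPM (median 149.6) with adropin and of 138.0 to 150.7 CPM (median 147.5) with saline. The log2 fold change was 0.02 (SE 0.04; edgeR adjusted p = 0.937), and the 95% interval of the fold change was 0.949 to 1.08. Gsk3b was more variable: adropin mice 1_3, 2_1, 2_4, 3_3, 4_1, 4_3, 5_5 and 7_4 were at 261.9, 247.6, 270.1, 191.0, 217.9, 161.3, 256.0 and 250.9 CPM. Saline mice 2_3, 5_3, 5_4, 6_1, 6_2, 7_1, 8_1 and 8_3 were at 202.5, 250.5, 157.3, 228.7, 199.2, 257.6, 209.6 and 174.1 CPM. Mice 4_3 and 5_4 were once more the lowest of their groups, and the log2 fold change was 0.14 (SE 0.11, 95% interval -0.09 to 0.38; edgeR adjusted p = 0.874). The log2 ratio of Gsk3a to Gsk3b differed by -0.13 between the groups (exact permutation p = 0.258, adjusted p = 0.427 over 6 ratios).

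Foxo1 encodes the transcription factor that AKT holds in the cytoplasm. Its level was 23.3, 19.1, 23.7, 27.1, 24.8, 35.9, 24.2 and 21.1 CPM in adropin mice 1_3, 2_1, 2_4, 3_3, 4_1, 4_3, 5_5 and 7_4. It was 30.1, 26.7, 27.6, 29.2, 23.6, 24.2, 19.6 and 24.7 CPM in saline mice 2_3, 5_3, 5_4, 6_1, 6_2, 7_1, 8_1 and 8_3. Mouse 4_3 had the highest level of all 16, and the remaining adropin mice lay within the saline range or just under it. The log2 fold change was -0.05 (SE 0.11, 95% interval -0.28 to 0.19; edgeR adjusted p = 0.931).

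**Figure D2:**
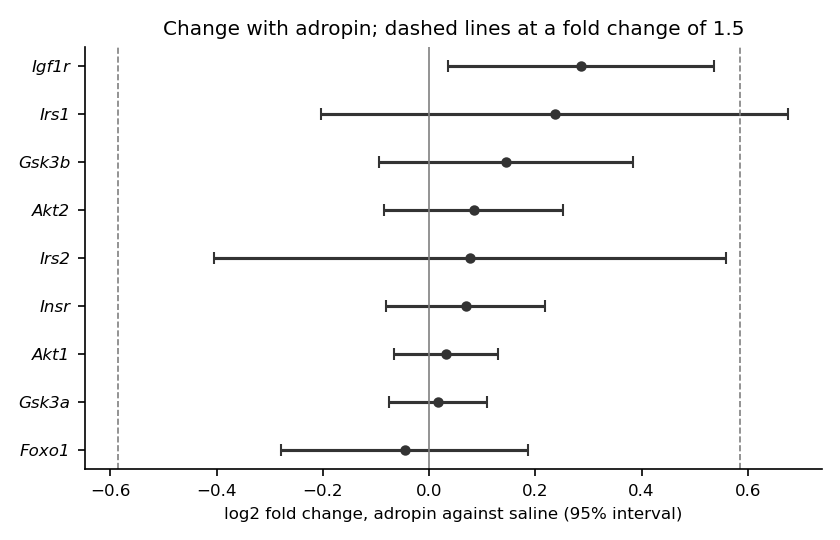
Log2 fold change of each gene, adropin against saline, from edgeR (points) with its 95% interval (bars), n = 8 mice per group. The dashed lines mark a fold change of 1.5 in either direction. The interval of Igf1r (0.04 to 0.54) lies above 0, and those of Irs1 and Irs2 are the widest.

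Levels can be compared between genes only per length, so CPM was divided by the length of the merged exons of each gene in kilobases. Over the 16 mice, Akt1 stood at 50.9 ± 2.54 CPM per kb and Gsk3a at 50.4 ± 2.20 CPM per kb (SD). On this length these 2 were not separated: Akt1 was above Gsk3a in 10 of 16 mice (paired exact sign-flip test, adjusted p = 0.355 over 8 neighbouring pairs). Gsk3b followed at 22.5 ± 3.79 CPM per kb and Akt2 at 14.1 ± 1.61 CPM per kb. Irs2 was at 5.13 ± 1.62 CPM per kb, above Insr at 3.29 ± 0.323 CPM per kb in 14 of 16 mice (adjusted p = 0.000529, same test).

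Foxo1, at 2.92 ± 0.483 CPM per kb, was not separated from Insr, which was higher in 11 of 16 mice (paired exact sign-flip test, adjusted p = 0.0536), although the pair passed without saline mouse 2_3, adropin mouse 3_3, adropin mouse 4_3 or saline mouse 5_4 (adjusted p = 0.0334, 0.0489, 0.0076 and 0.0362). Igf1r at 1.91 ± 0.380 and Irs1 at 0.924 ± 0.275 CPM per kb were the lowest. Each other neighbouring pair had the same order in 16 of 16 mice, with the smallest p that this exact test can give, 3.05e-05. With the longest transcript as the length instead, the order was the same but other neighbours were close. Akt1 (77.6 CPM per kb) was then above Gsk3a (64.7 CPM per kb) in 16 of 16 mice and Insr above Foxo1 in 15 of 16 (each past an adjusted p of 0.05 in the exact test). Irs2 (5.13) and Insr (4.83 CPM per kb, adjusted p = 0.929) and Foxo1 (2.92) and Igf1r (2.81 CPM per kb, adjusted p = 0.626) were not separated by the same exact test. Among relatives, on merged exon length, Foxo3 (13.2 ± 2.92 CPM per kb) and Foxo6 (7.04 ± 2.03 CPM per kb) stood above Foxo1, as did Foxo4 (6.53 ± 0.628 CPM per kb).

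**Figure D3:**
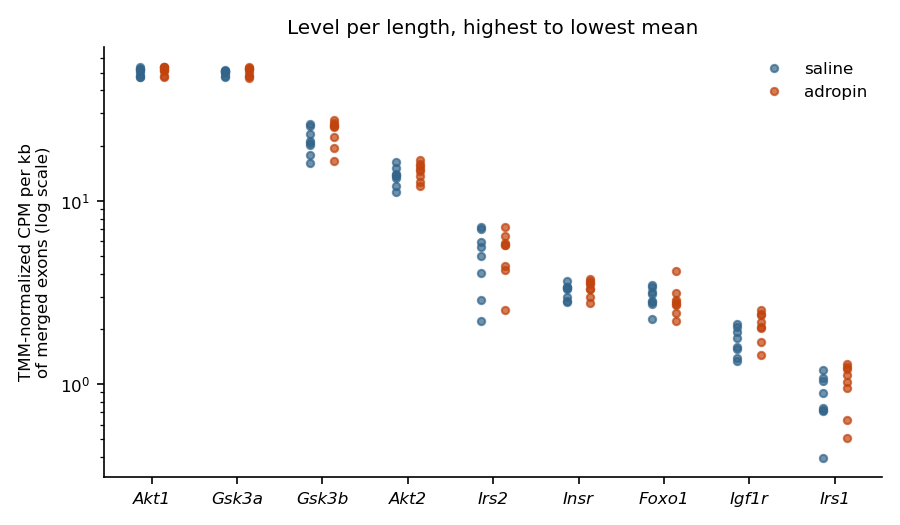
Level per length of each gene in each mouse (vertical axis, TMM-normalized CPM per kb of merged exons, log scale), with 8 saline and 8 adropin mice per gene. Akt1 and Gsk3a share the top at 50.9 and 50.4 CPM per kb, and Irs1 is lowest at 0.924.

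The wider pathway was described with 130 further genes in 9 lists, of which 120 were tested. Past an unadjusted p of 0.05 in edgeR, 5 were higher and 4 lower with adropin, 7.5% of the 120 beside 3.99% of all genes, and none of them passed the fold change of 1.5. All 9 had an adjusted p of 0.874. With Gm42418 as a covariate, 0 were higher and 6 lower past that unadjusted p. With the first label number as a replicate block, 0 were higher and 2 lower. Among receptors and adaptors, 1 of 13 genes passed: Shc3, a neuronal Shc adaptor, was at 35.9 ± 7.71 CPM with adropin and 26.0 ± 8.64 CPM with saline (SD), and its log2 fold change was 0.47 (SE 0.19, exact permutation p = 0.0328). Among phosphatases and inhibitors, 2 of 21 passed, Inpp4a and Enpp1. Inpp4a, an inositol polyphosphate 4-phosphatase, was 160.6 against 145.2 CPM (log2 fold change 0.15). Enpp1, known as an inhibitor of the insulin receptor, was 4.50 against 3.82 CPM (log2 fold change 0.23).

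Of the paralogues listed, 1 of 5 passed: Foxo4 was at 21.5 ± 2.13 CPM with adropin and 24.0 ± 1.46 CPM with saline (log2 fold change -0.16, SE 0.06, exact permutation p = 0.0152). Foxo3 was 106.2 against 93.9 CPM (exact permutation p = 0.336) and Foxo6 was 16.6 against 20.2 CPM (exact permutation p = 0.141). Of 20 genes of the mTOR complexes and their outputs, 1 was increased and 1 reduced. Mlst8, a subunit of both complexes, was 17.0 against 14.9 CPM (log2 fold change 0.19), and Ddit4, a stress-induced inhibitor of mTOR complex 1, was 32.7 against 38.6 CPM (log2 fold change -0.24).

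Among 21 tested genes listed as FOXO targets, 1 was increased and 2 were reduced. Whether FOXO factors act on these genes in this tissue was not tested. Prkaa2, a catalytic subunit of AMP-activated kinase, was 44.9 against 38.3 CPM (log2 fold change 0.23, exact permutation p = 0.0535). Cdkn1a, the cell cycle inhibitor p21, was 14.5 against 17.6 CPM (log2 fold change -0.27, exact permutation p = 0.0186), and Gadd45a, a stress-induced growth arrest gene, was 3.31 against 4.55 CPM (log2 fold change -0.46, exact permutation p = 0.0412). No gene passed among 8 ligands and binding proteins, 10 genes of PI3-kinase and PDK1, 18 partners and substrates of GSK3 and 4 glucose transporters. The insulin genes Ins1 and Ins2 did not reach the filter. List medians of the log2 fold change lay between -0.09 (ligands and binding proteins) and 0.06 (mTOR).

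Values of stimulus-dependent genes are given beside these. None of the scores of marker and stimulus lists passed an adjusted p of 0.05 between the groups. The lists were chosen with earlier results of these data known. From these same data the study had named Fos, Fosb, Junb, Dusp1 and Ccn1, all in the immediate early list, as responsive. Shares and p-values of the stimulus lists are therefore no independent evidence. Of 16 immediate early genes, 13 were lower with adropin past an unadjusted p of 0.05 (2.13% of all genes were). Their score, the mean of standardized log2 levels, differed by -1.103 (exact permutation p = 0.00793, adjusted p = 0.0555 over 14 measures). Of 14 glucocorticoid targets, 4 were reduced, among them Cdkn1a and Ddit4, and the score differed by -0.622 (exact permutation p = 0.00528, adjusted p = 0.0555). All 5 tested choroid plexus markers were reduced (adjusted p = 0.193 for their score, exact permutation test), with saline mouse 8_3 highest. For neurons, astrocytes, oligodendrocytes, microglia, endothelium, cerebellum, meninges and blood the adjusted p of the score was 0.400 or more in the same exact test, and of all their markers 1 microglial one was increased and 1 cerebellar one reduced. What part any of these had in the values of the pathway genes was not tested.

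Levels of Insr, Igf1r, Irs1, Irs2 and Gsk3b varied together between mice, within both groups, and the other 4 genes did so less evenly. Pearson correlations were computed over 16 mice on log2 levels with each group's mean subtracted, with p-values from permutations within groups, adjusted over the 36 pairs. Of the 36 pairs, 21 passed an adjusted p of 0.05, 20 of them positive and 1 negative, and 16 passed by Spearman's rho. In 13 pairs r was above 0.7 and in 0 pairs below -0.7, where 5.08% and 4.12% of all pairs of tested genes stood. The median absolute r was 0.612 over the 36 pairs and 0.321 over all pairs of genes.

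Irs1 and Irs2 were the closest pair (r = 0.912, rho = 0.921, permutation adjusted p = 0.00024). Their r was 0.914 within adropin mice and 0.921 within saline mice, and it stayed at 0.784 without the 2 mice farthest from the Irs1 median. Irs2 with Gsk3b (r = 0.908), Irs1 with Gsk3b (r = 0.903), Igf1r with Irs1 (r = 0.889) and Igf1r with Irs2 (r = 0.877) came next. Insr joined them less closely, with r = 0.867 to Gsk3b, 0.836 to Irs2, 0.819 to Igf1r and 0.791 to Irs1. Without the 2 farthest mice, r fell to 0.694 for Insr with Igf1r and to 0.613 for Insr with Irs1.

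**Figure D4:**
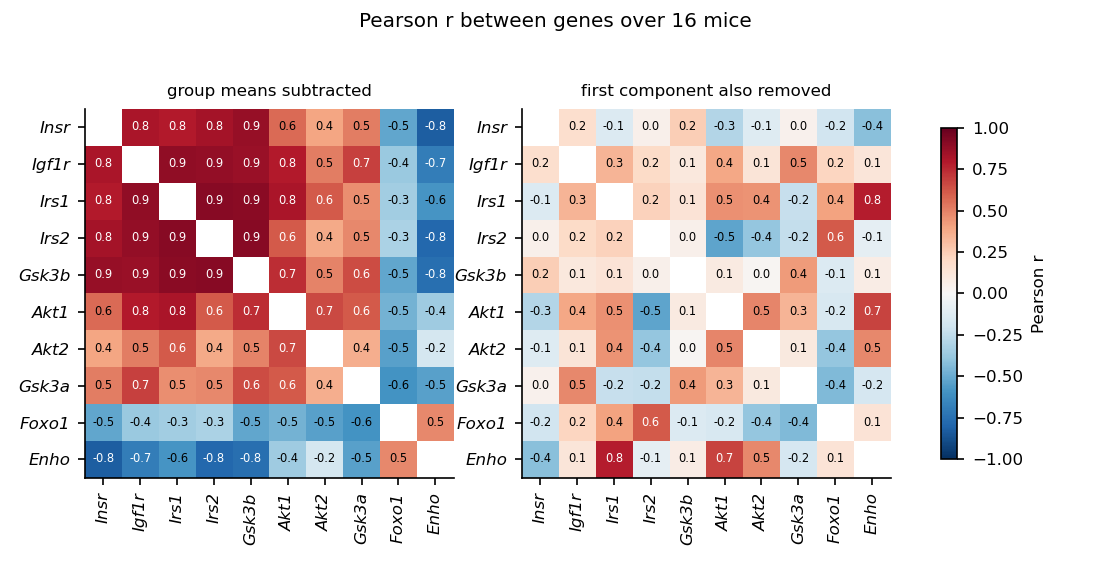
Pearson r between each pair of the 9 genes and Enho over 16 mice, on log2 levels with group means subtracted (left) and with the first principal component of all genes also removed (right); the colour scale runs from -1 to 1. The block of Insr, Igf1r, Irs1, Irs2 and Gsk3b, with r of 0.791 to 0.912, is absent on the right.

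Akt1 correlated with Irs1 (r = 0.814), Igf1r (r = 0.791) and Gsk3b (r = 0.739). Akt2 and Gsk3a were less tied to the rest. Akt2 with Igf1r had r = 0.509 over all mice (permutation adjusted p = 0.0728), with 0.876 within adropin mice and 0.128 within saline mice, and the difference between those was not tested. Without saline mouse 8_3 the pooled value was 0.783. Foxo1 ran the other way, with r between -0.600 and -0.313 to the other 8 genes. Within adropin mice these values were -0.840 to -0.641, and within saline mice they ran from -0.353 (Insr) to 0.127 (Irs1), 5 of the 8 being negative, and the difference was not tested. Without adropin mouse 4_3, r was 0.0042 with Irs1 and 0.046 with Irs2. Of the 8 relations only Gsk3a with Foxo1 passed (r = -0.600, permutation adjusted p = 0.0321), and without that mouse it was -0.421 and no longer passed. Leaving out mouse 4_3, 13 of the 36 pairs passed in place of 21.

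The covariation followed the leading axis of the whole transcriptome. The first principal component of all tested genes held 34.1% of the variance, and 33.7% of genes had an absolute r above 0.7 with it, so high correlations were common. Among the 9 genes, r with this component was 0.952 for Gsk3b, 0.949 for Irs2, 0.933 for Irs1, 0.896 for Igf1r, 0.873 for Insr and 0.757 for Akt1. It was 0.569 for Gsk3a, 0.512 for Akt2 and -0.505 for Foxo1. These genes are themselves among those the component was computed from. Mice 5_4, 4_3, 8_3 and 3_3, a pair from each group, had the lowest values on it, -0.586, -0.393, -0.353 and -0.191. Once the component was regressed out, 0 of 36 pairs passed and 0 had an absolute r above 0.7, and r of Irs1 with Irs2 was 0.234. Between the groups the component differed by 0.148 (exact permutation p = 0.268).

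Across genes, which are not independent replicates, r with the component rose with the length of the longest transcript (rho = 0.563, 14949 genes) and hardly varied with its GC content (rho = -0.0878). The longest transcripts of Igf1r, Insr, Irs1, Gsk3b and Irs2 have 11409, 9355, 9144, 8303 and 6323 bases, where the median over all genes is 3330. Those of Akt1, Akt2 and Gsk3a have 2690, 4544 and 2260 bases, and that of Foxo1, which ran against the component, has 8665. Whether transcript length had a part in the covariation was not tested.

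**Figure D5:**
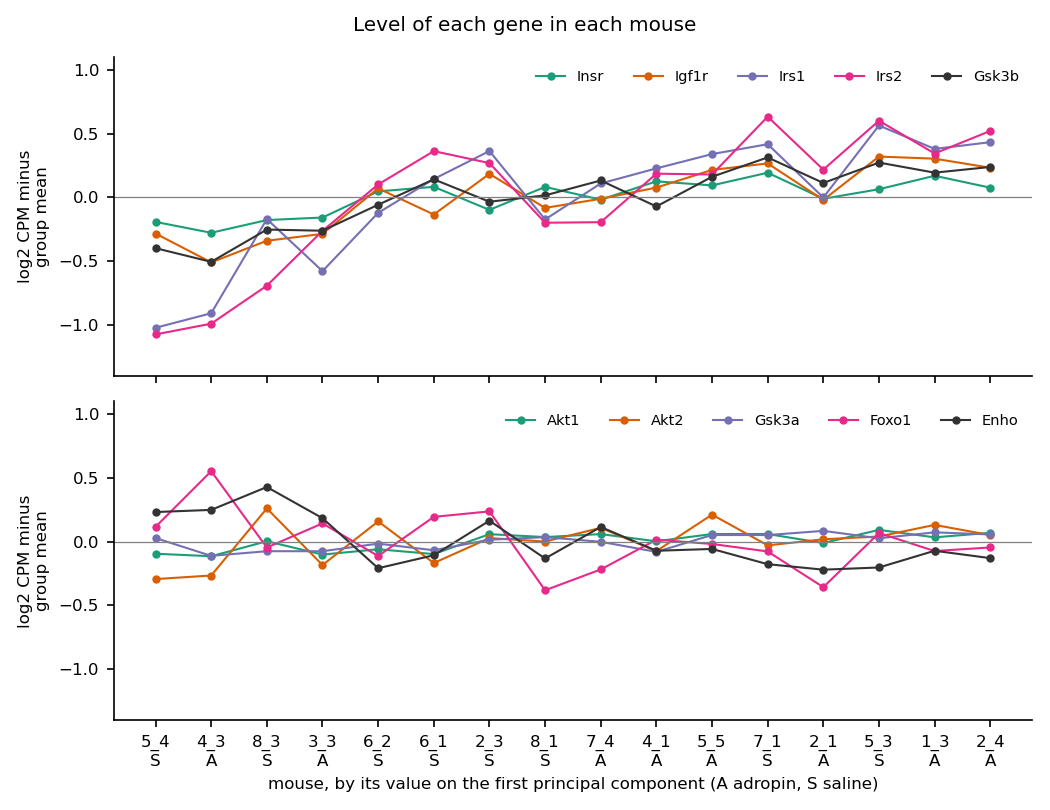
Log2 CPM of each gene minus its group mean (vertical axes) in the 16 mice, ordered along the horizontal axis by their value on the first principal component (A adropin, S saline). Irs2, Igf1r, Insr and Gsk3b are low in mice 5_4, 4_3, 8_3 and 3_3. Irs1 is low in 5_4, 4_3 and 3_3, but in 8_3 (-0.1703) it is no lower than in 8_1 (-0.1731). Akt1 and Gsk3a change little, and Foxo1 is highest in mouse 4_3.

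The study also asked how expression of Enho relates to genes of insulin signalling. Enho itself was at 51.6 ± 5.95 CPM with adropin and 55.3 ± 9.78 CPM with saline (edgeR adjusted p = 0.877). With group means subtracted, Enho correlated negatively with Insr (r = -0.826), Irs2 (r = -0.786), Gsk3b (r = -0.757), Igf1r (r = -0.694), Irs1 (r = -0.590) and Gsk3a (r = -0.543), each past an adjusted p of 0.05 over 9 relations by permutation. Foxo1 (r = 0.478), Akt1 (r = -0.354) and Akt2 (r = -0.174) did not pass. By Spearman's rho 0 of 9 passed, the smallest permutation adjusted p being 0.0578. An absolute r above 0.7 was found for 3 of the 9 genes, and 22.2% of all other genes reached it.

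The value for Insr was -0.771 within adropin mice and -0.907 within saline mice, and -0.767 without the 2 mice farthest from the Enho median. The negative relations ran along the same axis, since with the first principal component removed r was -0.416 for Insr, -0.093 for Irs2 and 0.076 for Gsk3b. Irs1 then had the opposite sign (r = 0.786, permutation adjusted p = 0.0168), and it was the 1 relation of 9 that passed.

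Levels of the 9 genes were also set against scores of cell type markers, stimulus genes and depth, in 126 relations, of which 18 passed an adjusted p of 0.05 by r and 13 by rho, 12 of them by both. Without adropin mouse 4_3, 7 passed by r. The first principal component made 6 of the 18. The astrocyte score correlated with Irs1 (r = 0.927), Gsk3b (r = 0.777), Akt1 (r = 0.767), Irs2 (r = 0.760) and Igf1r (r = 0.719), and the neuron score with Akt1 (r = 0.698). Of all genes tested, 14.3% had an absolute r above 0.7 with the astrocyte score. For the neuron score, the endothelium and vessel wall score and Gm42418, the share was 4.12%, 3.82% and 2.52%. Without the 2 farthest mice, the astrocyte relation was 0.455 for Irs2 and 0.555 for Gsk3b, and by rho those of Irs2, Gsk3b and Igf1r did not pass. Akt2 went with the immediate early genes (r = 0.815, rho = 0.721, permutation adjusted p = 0.00324) and with endothelium and vessel wall (r = 0.6997). Without the 2 mice farthest from the median, Akt2 with the immediate early genes had r = 0.741, and 4.82% of all genes had an absolute r above 0.7 with that score. Akt1 also went with the immediate early genes (r = 0.661, permutation adjusted p = 0.0455), though not by rho (permutation adjusted p = 0.151). Gsk3b correlated with Gm42418 (r = 0.775), an RNA that overlaps ribosomal RNA sequence and took 0.840% to 4.98% of counts. Negative relations past the threshold were those of Insr with the choroid plexus score (r = -0.595) and of Igf1r with the cerebellum score (r = -0.463, and -0.123 without the 2 farthest mice), neither of which passed by rho.

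For each gene, the 3 tested genes with the highest r over the 16 mice were named. Irs2 had the closest neighbours, Fam120c (r = 0.987), Usp9x and Kif3c, and Gsk3b was next with Lnpep (r = 0.983), Brd1 and Rims2. Irs1 was closest to S1pr1 (r = 0.9753), Fads1 and Mgat3. The receptors followed, Igf1r with Map1a (r = 0.955), Clec16a and Dgkh, and Insr with Zbtb43 (r = 0.949), Sestd1 and Rnf169. Akt1 had Pcif1 (r = 0.938), Astn2 and Pik3r1, the last of which encodes the regulatory subunit of PI3-kinase. Akt2 was nearest to Fgd3 (r = 0.922), Arap1 and Lynx1, Foxo1 to Gstm4 (r = 0.874), Ndp and Supt3, and Gsk3a to Cpox (r = 0.800), Itgb3 and Magi2. The number of genes with r above 0.7 ranged from 72 for Gsk3a and 171 for Foxo1 to 2643 for Gsk3b, 2666 for Irs1 and 2798 for Irs2.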

How the data were processed

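RNA of 16 brains was sequenced (poly-A libraries, paired reads). The authors aligned reads with STAR 2.5.1a1 to an Ensembl gene set of GRCm38 and counted them with featureCounts 1.4.6-p52, as the submitters' processing notes name these versions. The deposited raw counts per gene were used. The deposited CPM values, which the authors scaled to library totals without TMM, served only as an alternative, and no columns of the authors' comparisons were used. Of 40757 lines, 276 repeats were dropped, leaving 40481 genes, and 355 annotated rRNA genes were left out of tests. Genes above 1 CPM in at least 7 mice (14949) were fitted in edgeR 4.0.16 (R 4.3.3, TMM over all genes, quasi-likelihood test, no covariate), with Benjamini-Hochberg adjustment over all of them. SE is the log2 fold change divided by the square root of F.

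Single values were tested by exact permutation over 12870 divisions of the mice, two-sided. Correlations used log2 TMM-normalized CPM (prior count 2) with 100000 shuffles within groups. Marker scores are means of standardized log2 levels of the markers tested. Each mouse is a separate animal. The p-values take mice as independent and set differences against the spread between mice of this cohort. The labels' mouse numbers (such as 8_3) are not explained, and only first numbers 2, 5 and 7 occur in both groups, so they were used as blocks only in alternatives. Named were all 9 genes, their paralogues (1 of which is not reported here), every pathway list gene past an unadjusted p of 0.05, and the 3 nearest genes of each of the 9. Members and lists were chosen with earlier results of these data known. limma 3.58.1, DESeq2 1.42.0, sva 3.50.0 and SciPy 1.17.1 served the alternatives and tests. Only the edgeR fit, the exact permutation of group differences and the permutation of correlations within groups were tried on simulated data.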

Additional observations from a re-analysis of the deposited data

Results flagged for a closer look

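In 60 groups of 8 mice, the highest or lowest mouse was checked for a gap to its nearest neighbour of over 0.526 of the group's range, which chance gives in about 3 groups, and 4 were found. The Foxo1 level of adropin mouse 4_3 was 35.95 CPM, where the next mouse had 27.06 CPM. The log2 ratio of Irs1 to Irs2 in saline mouse 8_3 was -1.466, where the next had -1.893. The cerebellum score was 0.2011 in adropin mouse 4_3 (next -0.09937) and 2.888 in saline mouse 8_3 (next -0.05558).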

How the results depend on the processing

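The count of the 9 genes past an unadjusted p of 0.05 was 1 in the reported edgeR test, 2 with 1 surrogate variable and 2 with the first principal component as a covariate (chosen after seeing the data), where Irs2 joined Igf1r in the opposite direction, lower with adropin (log2 fold change -0.19 in both). It was 0 with Gm42418 as a covariate, 0 with the mouse label's first number as a replicate block, 0 with its second, and 0 to 1 when mice were left out in turn (0 without adropin 1_3, adropin 2_4, saline 5_4 or saline 8_3). Over 29 alternatives the log2 fold change of Igf1r stayed above 0 (0.14 to 0.36) with p under 0.05 in 22. Pathway genes increased numbered 5, against 0 with Gm42418, 0 with the first label number as a replicate block, 3 in limma-trend at either pseudocount, and 3 to 11 with a mouse left out (11 without adropin 4_3). Those reduced numbered 4, against 9 with 1 surrogate variable, 9 with the first component and 2 in that block. The ratio of Insr to Igf1r differed by -0.13 in the first-number block (exact p = 0.333, 8 mice, smallest p possible 0.0556).

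Fold changes changed sign under several settings. With 1 surrogate variable they were -0.0059 (Insr), -0.030 (Irs1), -0.19 (Irs2), -0.00051 (Akt1), -0.0045 (Gsk3a) and 0.0072 (Foxo1), and with the first component -0.0067, -0.035, -0.19, -0.0016, -0.0051 and 0.010 in the same order. With Gm42418 they were -0.067 (Irs2), -0.0048 (Gsk3a) and 0.020 (Foxo1). Gsk3a was -0.0055 with library size only and -0.0057 in limma-trend at pseudocounts 0.1 and 1. With a mouse left out, Irs2 ranged from -0.033 to 0.19 and was -0.0085 without saline 8_3, and Foxo1 ranged from -0.13 to 0.0063. With the first label number as a replicate block, Foxo1 was -0.29 and Akt2 0.24, neither past an unadjusted p of 0.05.

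With the first component removed, 0 pairs of the 9 genes passed an adjusted p of 0.05 and 0 had an absolute r above 0.7, and r changed sign in 10 of 36 pairs and 5 of 9 relations with Enho. Of those that had passed, these were Insr with Irs1 (-0.13), Insr with Akt1 (-0.29), Irs2 with Akt1 (-0.53) and Enho with Igf1r (0.12), Irs1 (0.79) and Gsk3b (0.076). Relations with Enho past the adjusted p then numbered 1 in place of 6 and those past 0.7 numbered 1 in place of 3, and by Spearman's rho both were 0. With the first label number regressed out as a replicate block, 6 passed 0.7. With a mouse left out, 13 to 28 pairs and 7 to 24 relations with scores passed (7 without adropin 4_3, 11 without adropin 3_3). The order of levels per length was the same in all 19 settings, but by the longest transcript Akt1 and Gsk3a, and Insr and Foxo1, were separated, and Irs2 and Insr, and Foxo1 and Igf1r, were not, and with a mouse left out 6 to 7 of 8 neighbouring pairs were separated. The cause of these shifts was not tested. Depth was 125 counts or more for each of the 9 genes in every mouse, so the spread between mice set the width of the intervals.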
